A study of Mus musculus with 3 samples.

Results

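The EGF family ligands and ERBB receptors were described in RNA sequencing of cells sorted as lymphatic endothelium from the large intestine of mice. The 10 genes were taken by symbol from the deposited tables, as 10 of 24091 listed genes: 7 ligands (Egf, Areg, Ereg, Btc, Tgfa, Hbegf and Nrg1) and 3 receptors (Egfr, Erbb2 and Erbb3). The series holds 1 group of 3 libraries, here replicates 1, 2 and 3, from C57BL/6 mice with no stated treatment, age or sex. Intestinal tissue was digested, and cells were sorted on CD31, podoplanin and LYVE1, surface proteins of lymphatic endothelium. Nothing in the labels says that the libraries came from separate animals, so p-values and SDs measure only how these libraries differ, which may be technical. Values are in TPM, a relative transcript abundance that corrects for transcript length and library size, so levels of different genes can be set side by side within a library. With 1 group there was no condition to compare.

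EGF family ligands are made as membrane-bound precursors and are released by proteases of the ADAM family. They bind receptor tyrosine kinases of the ERBB family, which pair up and signal through RAS and the ERK kinases, PI3K and AKT, and STAT proteins. EGF, amphiregulin (Areg) and TGF-alpha (Tgfa) bind EGFR. Betacellulin (Btc), HB-EGF (Hbegf) and epiregulin (Ereg) bind EGFR and ERBB4, and neuregulin 1 (Nrg1) binds ERBB3 and ERBB4. ERBB2 binds none of these ligands and acts as the partner of the other receptors, while ERBB3 has little kinase activity of its own and depends on a partner. In the gut, this pathway is known for driving proliferation and repair of the epithelium, and EGF is a standard factor in intestinal organoid culture.

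The ligands share 1 feature, the EGF-like domain that binds the receptor and is held together by cysteine bridges. The coding stretches of this domain are shown for 6 ligands, to show what makes these genes a family. They run from the first to the last cysteine codon, 5′ to 3′, from the longest coding transcript of GENCODE M21 (GRCm38), with the 6 cysteine codons in capitals.
Areg: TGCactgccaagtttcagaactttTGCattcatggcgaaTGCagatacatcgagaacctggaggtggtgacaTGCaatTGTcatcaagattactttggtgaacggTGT
Tgfa: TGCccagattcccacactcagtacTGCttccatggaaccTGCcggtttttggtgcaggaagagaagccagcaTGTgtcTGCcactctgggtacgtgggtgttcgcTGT
Btc: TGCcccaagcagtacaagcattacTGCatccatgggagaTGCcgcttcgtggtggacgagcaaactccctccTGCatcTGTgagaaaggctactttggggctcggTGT
Ereg: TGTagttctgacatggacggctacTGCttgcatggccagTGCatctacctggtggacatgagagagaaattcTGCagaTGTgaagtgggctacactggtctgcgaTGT
Egf: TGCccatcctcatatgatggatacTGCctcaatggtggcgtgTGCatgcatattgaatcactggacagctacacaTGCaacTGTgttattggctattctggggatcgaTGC
Nrg1: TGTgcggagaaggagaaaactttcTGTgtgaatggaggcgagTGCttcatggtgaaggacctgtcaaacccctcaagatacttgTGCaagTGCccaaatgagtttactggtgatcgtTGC
Areg, Tgfa, Btc and Ereg had the same spacing, with 7, 4, 10, 1 and 8 codons between successive cysteine codons, and a length of 108 bases. Egf had 5 codons in the second gap and a length of 111 bases. Nrg1 had 5 codons in the second gap and 13 in the third, and its stretch was the longest of the 6 at 120 bases. Over the 6 pairs of ligands of equal spacing, base identity ran from 45.4% (Ereg and Tgfa) to 62.0% (Btc and Tgfa).

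The libraries held RNA of other cells beside the sorted type. All 11 defining lymphatic genes, led by Lyve1, Mmrn1 and Reln, had 1 TPM or more in every library, against 53.4% of all genes. Their TPM summed to 984 to 1771, while 18 colon epithelial genes, led by Car1, Krt8 and Lgals4, summed to 20555 to 25905. Sums were 908 to 1030 for blood endothelium (Aqp1, Car4, Gpihbp1), 140 to 523 for fibroblasts (Dcn, Col3a1, Dpt), 197 to 424 for smooth muscle and pericytes (Tagln, Acta2, Actg2), 235 to 610 for macrophages and dendritic cells (Lyz2, C1qa, Cd14), 68.1 to 201 for lymphocytes and plasma cells (Jchain, Mzb1, Cd79a) and 5.76 to 12 for enteric neurons and glia (Uchl1, S100b). The 12 blood endothelial genes did not move together: 6 were lowest in replicate 3 and 5 were highest there. Car4, 1 of those 5, had 143, 148 and 289 TPM in replicates 1, 2 and 3. Whether its RNA came from endothelium or other cells was not tested. No marker of these lists was at 0 in all libraries. Which cells held the members' RNA was not tested, and in bulk RNA fewer cells of a type and less RNA per cell cannot be told apart.

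The receptors Erbb3 and Erbb2 were the most abundant members, and Egfr was several times lower. Erbb3 (Entrez 13867, chromosome 10, 128567523 to 128589635, mm10) stood at 21.6, 51.3 and 58.3 TPM in replicates 1, 2 and 3 (43.7 ± 19.5, SD, n = 3). Replicate 1 was well below the other libraries, which lay close together. Erbb2 (Entrez 13866, chromosome 11, 98412484 to 98437716) stood at 31.4, 47.6 and 48.6 TPM (42.5 ± 9.63), again lowest in replicate 1. Egfr (Entrez 13649, chromosome 11, 16752203 to 16913907) had 5.13, 8.08 and 10.7 TPM (7.97 ± 2.79). No Egfr value reached the lowest value of Erbb2 or Erbb3. Erbb2 exceeded Egfr 6.13-fold, 5.89-fold and 4.54-fold in replicates 1, 2 and 3, and Erbb3 exceeded Egfr 4.21-fold, 6.35-fold and 5.44-fold. The ratio of Erbb3 to Erbb2 was 0.686 in replicate 1 but 1.08 and 1.20 in replicates 2 and 3, so their order was not the same in every library. Together these receptors made up 91.5 ± 0.829% (n = 3) of the summed TPM of the 3 receptors.

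Among the ligands, Areg, Tgfa and Hbegf formed a leading group. Areg (Entrez 11839, chromosome 5, 91139599 to 91148432), the ligand also known from immune cells and tissue repair, stood at 7.49, 13.7 and 12.6 TPM (11.2 ± 3.30, n = 3). Tgfa (Entrez 21802, chromosome 6, 86195038 to 86275744) had 6.38, 9.63 and 11.2 TPM (9.06 ± 2.45). Hbegf (Entrez 15200), which also serves as the receptor of diphtheria toxin in humans, had 6.92, 11.3 and 8.68 TPM (8.98 ± 2.23). All of these ligands were lowest in replicate 1, and their ranges overlapped widely. They made up 80.2%, 85.1% and 80.6% of the summed TPM of the 7 ligands in replicates 1, 2 and 3. Areg alone took 28.9%, 33.6% and 31.2%.

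The other ligands were lower. Btc (Entrez 12223, chromosome 5, 91357261 to 91402994) had 2.29, 2.97 and 3.10 TPM (2.79 ± 0.434, n = 3), and Egf (Entrez 13645, chromosome 3, 129677574 to 129755322) had 1.66, 2.16 and 2.21 TPM (2.01 ± 0.305). Areg exceeded Egf, the ligand that gives the family its name, 4.52-fold, 6.33-fold and 5.70-fold. Ereg (Entrez 13874, chromosome 5, 91074617 to 91093649) stood at 0.886, 0.814 and 1.88 TPM (1.19 ± 0.597) and passed 1 TPM only in replicate 3. Nrg1 (Entrez 211323, chromosome 8, 31807452 to 32891609) was the lowest member at 0.313, 0.140 and 0.622 TPM (0.359 ± 0.244), below 1 in every library. Ereg and Nrg1 were the only members whose lowest value was in replicate 2 instead of replicate 1, and both were highest in replicate 3.

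**Figure D1:**
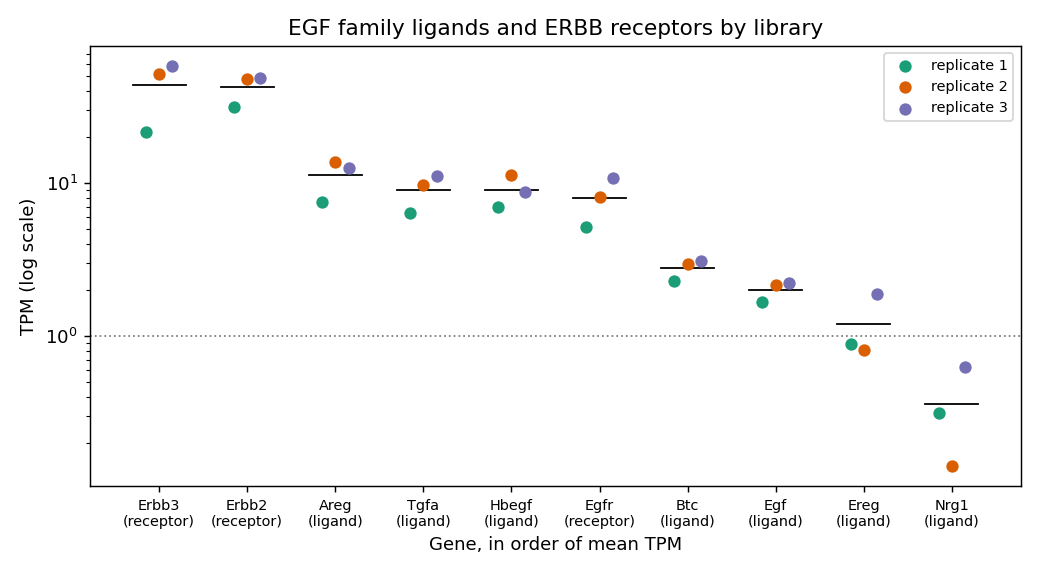
TPM of the 10 genes (log axis) in replicates 1, 2 and 3 (points), with the mean as a bar, in order of mean TPM, and a dotted line at 1 TPM. Erbb3 and Erbb2 lie above 20 TPM in every library, the points of replicate 1 are the lowest for 8 of the 10 genes, and Nrg1 stays below the line.

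A gene was called expressed at 1 TPM or more in all 3 libraries, which held for 53.4% of all 24091 genes. Of the members, 8 of 10 were expressed, 1 (Nrg1) stayed below in all libraries, as did 41.0% of all genes, and 1 (Ereg) lay between. The median member had 5.76, 8.86 and 9.70 TPM, against 14.8, 18.0 and 17.8 for the median of the 12862 expressed genes and 2.02, 2.44 and 2.77 for all genes. Erbb2 lay at percentiles 70.0, 76.4 and 77.1 of the expressed genes and Erbb3 at 60.4, 78.0 and 81.0. Areg lay at percentiles 31.1, 41.6 and 39.4, and Egf at 4.67, 5.61 and 4.53. Even the leading ligand was thus below the middle of the expressed genes in all 3 libraries, whereas the leading receptors were above it.

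The order of the members was examined through the 9 pairs of neighbours in mean TPM. For 6 pairs the difference of log2(TPM + 1) had the same sign in 3 of 3 libraries. These were Erbb2 above Areg (1.84 ± 0.11 on the log2 scale, 3.59-fold, n = 3), Areg above Tgfa (0.27 ± 0.17), Egfr above Btc (1.20 ± 0.31), Btc above Egf (0.33 ± 0.02), Egf above Ereg (0.48 ± 0.32) and Ereg above Nrg1 (0.67 ± 0.15). Flipping the signs of the 3 library differences (exact permutation test, two-sided) gave p = 0.25 for each of the 6 pairs, and no smaller p is possible with 3 libraries. The pairs and their direction were set by the means of these same libraries, which favours positive differences. The p-values are therefore no independent test of the order. The Benjamini-Hochberg adjusted p over the 9 pairs was 0.375 for each. Neighbours that changed places between libraries were Erbb3 and Erbb2 (-0.05 ± 0.41), Tgfa and Hbegf (0.00 ± 0.29) and Hbegf and Egfr (0.18 ± 0.39), whose differences were smaller than their SD. Egfr was below Areg in all 3 libraries, with a ratio of 0.685, 0.590 and 0.852, and also below Tgfa in each.

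As a group, the 3 receptor members lay above the 7 ligand members. The receptor gene Erbb4, listed at 0 in all libraries, and the low ligand genes Epgn, Nrg2, Nrg3 and Nrg4 are outside these groups. The mean log2(TPM + 1) of the 3 receptors exceeded that of the 7 ligands by 2.13, 2.60 and 2.65 in replicates 1, 2 and 3 (2.46 ± 0.29, n = 3), a 5.51-fold difference on this scale. With medians in place of means the difference was 3.33. In summed TPM the receptors had 58.1, 107 and 118 and the ligands 25.9, 40.8 and 40.2, a ratio of 2.24, 2.63 and 2.92. Egfr itself was below Areg and Tgfa in every library.

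**Figure D2:**
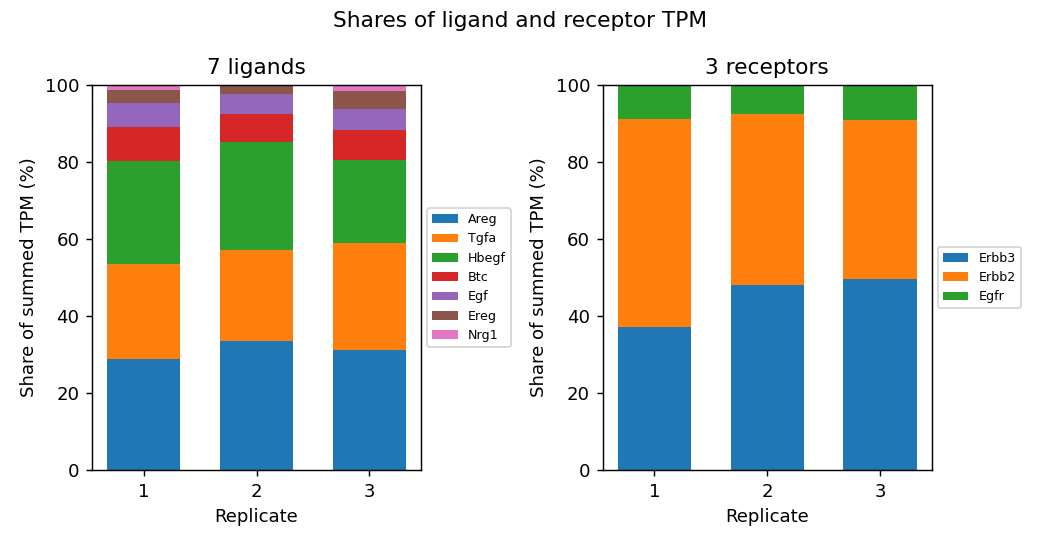
Share (%) of each gene in the summed TPM of the 7 ligands (left) and of the 3 receptors (right), 1 bar for each replicate. Areg, Tgfa and Hbegf fill 80.2% to 85.1% of the ligand bars, and Egfr fills 7.55% to 9.11% of the receptor bars.

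Ereg, Areg and Btc lie next to each other on mouse chromosome 5, with Epgn, the gene of the ligand epigen (91027517 to 91035212), on the side of Ereg. Their levels differed although they are neighbours. Areg exceeded Ereg 8.45-fold, 16.8-fold and 6.68-fold and Btc 3.27-fold, 4.60-fold and 4.06-fold in replicates 1, 2 and 3. Epgn was listed at 0 in replicate 1 and at 0.0692 and 0.151 TPM in replicates 2 and 3.

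The 150 bases before the start of Areg, the most abundant ligand, are shown with motifs in capitals (GRCm38.p6, RefSeq, chr5:91139449-91139598, plus strand).
Areg promoter: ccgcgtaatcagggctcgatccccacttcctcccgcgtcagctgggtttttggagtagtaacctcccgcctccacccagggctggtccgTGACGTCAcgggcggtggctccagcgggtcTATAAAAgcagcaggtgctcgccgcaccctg
The first capitals mark the cyclic AMP response element TGACGTCA, 61 to 54 bases before the start, and the second the TATA box letters TATAAAA, 31 to 25 bases before it. Of 32851 promoter windows of 300 bases in the RefSeq table, 1.79% held TGACGTCA and 5.48% held TATAAAA on either strand. The table had windows for 6 members, 7 windows in all, of which 1, that of Areg, held TGACGTCA and 1 held TATAAAA. A match of letters is a description and shows no binding.

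The family genes outside the 10 were low. Erbb4, the receptor shared by HB-EGF, betacellulin and the neuregulins, was listed at 0 in all 3 libraries. Nrg4, a neuregulin that binds ERBB4, had 0.820, 1.74 and 1.45 TPM (1.34 ± 0.471, n = 3). Nrg2 had 0.223, 0.410 and 0.404 TPM, and Nrg3 had 0.0333, 0.0185 and 0.0101 TPM. None of these 5 genes was expressed in all libraries, against 53.4% of all genes. Of the 5, 4 stayed below 1 TPM in each library, as did 41.0% of all genes. Of the ligands that can bind ERBB4, the most abundant member was Hbegf, which also binds EGFR.

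Of 10 genes that act on the release of the ligands from the membrane, proteases, their cofactors and 1 inhibitor, 9 were expressed, against 53.4% of all genes, with medians of 18.8, 27.5 and 28.1 TPM. Timp3, the inhibitor, led at 215 ± 36.9 TPM (n = 3), with 233, 239 and 173 in replicates 1, 2 and 3. Rhbdl2, a rhomboid protease, had 65.6 ± 9.32, the proteases Adam10, Adam15 and Adam9 had 49.5 ± 4.88, 42.0 ± 7.03 and 28.8 ± 7.38, and Adam12 stayed below 1 TPM at 0.226 ± 0.0593. Adam17, the main protease that releases Areg, Tgfa and Hbegf, was singled out after its values were seen, at 14.1, 16.9 and 16.4 TPM (15.8 ± 1.50). It lay above Areg in all 3 libraries, with a ratio of 1.88, 1.23 and 1.30.

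All 21 genes that restrain the receptors or are feedback inhibitors were expressed, against 53.4% of all genes. Their medians of 10.8, 17.4 and 17.5 TPM lay below those of all expressed genes, 14.8, 18.0 and 17.8. Nedd4, a ubiquitin ligase, led at 107 ± 23.4 TPM (n = 3), followed by the ubiquitin ligase Cblc at 62.0 ± 5.48, the receptor inhibitor Lrig1 at 48.3 ± 7.51, the ERK phosphatase Dusp6 at 44.8 ± 3.33 and Errfi1, which blocks the EGFR kinase, at 26.8 ± 6.30. Lrig1 exceeded Egfr 7.83-fold, 6.81-fold and 4.64-fold in replicates 1, 2 and 3. Errfi1 exceeded it 3.81-fold, 3.76-fold and 2.85-fold. Other genes of the list, chosen here after their values were seen, lay below Egfr in every library: Lrig2, of the same family as Lrig1, had 3.90, 6.51 and 7.27 TPM, and the ubiquitin ligase Cblb had 4.44, 5.23 and 6.43 TPM.

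The 26 adaptor and kinase genes were likewise all expressed, against 53.4% of all genes, with medians of 24.0, 26.3 and 29.9 TPM. Mapk3, which encodes ERK1, led at 350 ± 30.5 TPM (n = 3), followed by Akt1 at 125 ± 15.9 and the ERK kinase genes Map2k1 at 102 ± 19.8 and Map2k2 at 102 ± 3.01. Of 10 genes known to respond to ERK signalling, 9 were expressed, beside the same 53.4% of all genes. Mcl1 (159 ± 17.8), Fos (103 ± 17.8), Ccnd1 (71.0 ± 4.02), Phlda1 (55.3 ± 6.48) and Ier3 (28.5 ± 4.76) led, and Fosl1 stayed below 1 TPM at 0.184 ± 0.127.

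Member levels differed between the libraries: all 8 expressed members were lowest in replicate 1, and 6 of the 8 were highest in replicate 3. Over all expressed genes, 63.2% were lowest in replicate 1 and 40.5% highest in replicate 3, so a low replicate 1 was the rule in these libraries. Areg and Hbegf, the other 2, were highest in replicate 2, as were 42.4% of expressed genes. No expressed member was highest in replicate 1 or lowest in replicate 2 or 3, against 17.1%, 13.9% and 22.9% of expressed genes. With median-of-ratios scaling, an alternative that sets the typical gene equal across libraries, 37.0% of expressed genes and still 8 of 8 expressed members were lowest in replicate 1. Erbb3 showed the widest spread of the expressed members, at 2.38-fold and 2.70-fold above replicate 1 in replicates 2 and 3. Its SD of log2(TPM + 1) was 0.76, above percentile 95 of genes of like expression (0.42). This made 1 of 9 members of mean TPM 1 or more variable by that rule, against 5.0% of 13606 genes, and without replicate 1 no member was. Egfr (SD 0.47, 2.09-fold between its lowest and highest library) and Areg (SD 0.43, 1.83-fold) lay below percentile 95 of their own bins, which was 0.60 and 0.53.

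Replicate 1 also differed from the other libraries by transcript length. Of 12099 expressed genes with a coding transcript in GENCODE M21, in 6 bins of length, the median difference of log2(TPM + 1) between replicate 1 and the mean of replicates 2 and 3 was 0.04 for the shortest transcripts (216 to 1591 bases) and -0.47 for the longest (5404 bases or more). The share of genes lowest in replicate 1 went from 27.1% to 85.5% over the same bins. Replicates 2 and 3 showed no such step with length, with bin medians of -0.02 to -0.01. The long receptors lie where this difference is large: Erbb3 (6016 bases) was at -1.30, Egfr (10208 bases) at -0.75 and Erbb2 (5012 bases) at -0.60, against bin medians of -0.47, -0.47 and -0.33. Areg, at 1215 bases among the shortest, was at -0.73, where its bin had a median of 0.04. Only 1.29% of the genes in its bin, and 2.08% in that of Erbb3, were lower than these members. In all, 7 of the 8 expressed members lay below their bin's median, the exception being Egf (-0.26 against -0.33). The part of transcript length in the members' low values was not tested beyond these differences.

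**Figure D3:**
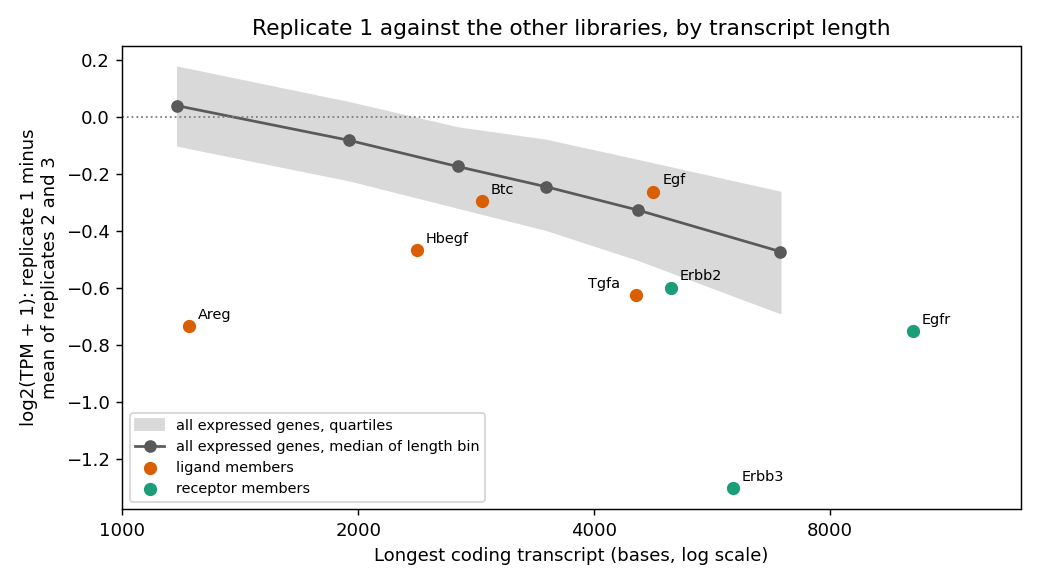
Difference of log2(TPM + 1) between replicate 1 and the mean of replicates 2 and 3 (vertical axis) against the longest coding transcript in bases (log axis), for the 8 expressed members (points) and all expressed genes (line, median of 6 length bins, with quartiles shaded). The line falls from 0.04 to -0.47, and Areg at -0.73 and Erbb3 at -1.30 lie farthest below it.

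Markers of several cell types moved between the same libraries, and their levels are given beside the members. Each gene's log2(TPM + 1) was centred on its own mean over the libraries, and the median was taken over the list. The receptors were at -0.50, 0.18 and 0.43 in replicates 1, 2 and 3 and the ligands at -0.20, 0.08 and 0.19. All expressed genes were at -0.13, 0.08 and 0.06, with 63.2% lowest in replicate 1 and 40.5% highest in replicate 3. Colon epithelial genes were at -0.10, -0.01 and 0.14, with 10 of 18 lowest in replicate 1 and 11 of 18 highest in replicate 3. Their median in replicate 1 was thus no lower than that of all expressed genes. Lymphatic genes were at 0.21, 0.22 and -0.48, with 10 of 11 lowest in replicate 3, against 22.9% of all expressed genes. No member and no colon epithelial gene was lowest in replicate 3. Lymphocyte and plasma cell genes were at -0.59, -0.09 and 0.62, with 8 of 10 lowest in replicate 1 and 9 of 10 highest in replicate 3. The medians of the receptors, ligands, colon epithelial genes and lymphocyte and plasma cell genes thus had the same order of libraries. This order was not particular to these cell types. It was shared by the genes of ligand release (-0.16, 0.08 and 0.09), the inhibitors (-0.37, 0.16 and 0.18) and the adaptors and kinases (-0.20, 0.09 and 0.13). The other family genes (-0.10, 0 and 0.06) had it too, but the response genes (-0.12, 0.10 and 0.06) did not. Fibroblast genes were at -0.24, -0.79 and 1.02, and all 10 were highest in replicate 3. Macrophage and dendritic cell genes were at -0.21, -0.62 and 0.79 and smooth muscle and pericyte genes at -0.19, -0.37 and 0.55, with 9 of 10 highest in replicate 3 in each list. Of the 10 members, 8 were highest in replicate 3, including Ereg and Nrg1, which were not called expressed. Of all 24091 genes, 8126 were highest there, while 5024 were at 0 in all libraries. The part of these cell types in the members' values was not tested.

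**Figure D4:**
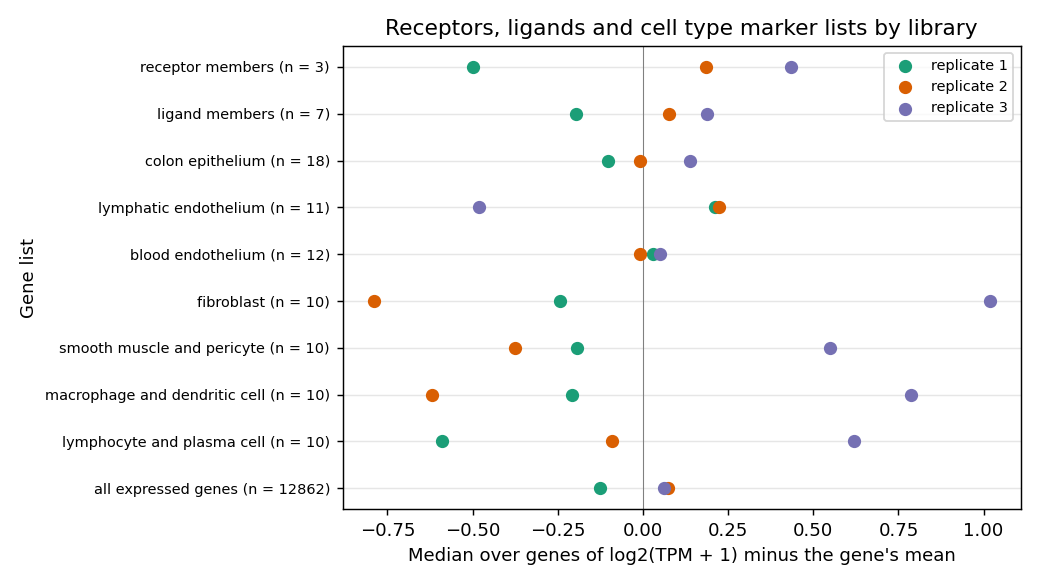
Median over the genes of a list of log2(TPM + 1) minus the gene's mean over the libraries (horizontal axis), 1 point for each replicate, for the receptors, the ligands, marker lists and all expressed genes. Receptors and ligands lie lowest in replicate 1 (-0.50 and -0.20). So do colon epithelial genes (-0.10), lymphocyte and plasma cell genes (-0.59) and all expressed genes (-0.13). Lymphatic genes lie lowest in replicate 3 (-0.48), and fibroblast genes lie highest in replicate 3 (1.02).

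The genes whose profile over the 3 libraries was most like that of each member were sought among 150 pathway and marker genes of mean TPM 1 or more. Likeness was the distance between centred log2(TPM + 1) profiles, which with 3 libraries many genes can share by their common depth and scaling. Nearest to Erbb2 were the phosphatase gene Ptpn11 (distance 0.01, 16.2, 24.5 and 25.3 TPM) and Sos1 (0.02), an activator of RAS. Erbb3 was nearest to Socs4 (0.09, 3.95, 10.6 and 11.2 TPM) and to the plasma cell gene Jchain (0.14). Egfr was nearest to Rnf41 and Lrig2 (both 0.17), and so was Tgfa, with Lrig2 at 0.06 and Rnf41 at 0.09. Areg was nearest to Adam9 (0.11, 20.3, 32.7 and 33.4 TPM) and Errfi1 (0.13), and Hbegf to the goblet cell mucin gene Muc2 (0.08, 627, 988 and 827 TPM) and Nrg4 (0.14). Btc was nearest to Stat3 (0.02) and Rhbdf2 (0.04), Egf to Rhbdf2 (0.01) and Pik3ca (0.04), and Ereg to the pericyte gene Pdgfrb (0.10, 3.93, 3.64 and 7.10 TPM).

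TPM does not state the depth, but low values among 2317 genes with a single transcript fell on regular steps. The step was 32.3, 28.5 and 26.2 fragments for 1 TPM on 1000 effective bases in replicates 1, 2 and 3. Nonzero values with TPM times effective length, in units of 1000 bases, below 0.2 were used. They came from 236, 247 and 267 genes in replicates 1, 2 and 3. Their fragments were whole to within 0.15 in 73.3%, 76.5% and 79.8% of cases, where evenly spread values would give 30%. The step was chosen as the best fit to these same genes, which can raise the shares. A score of the fit, 1 for perfect steps, was 0.63, 0.65 and 0.70. After shuffling the lengths and fitting again it was 0.05, 0.07 and 0.09. By the step of each library, Erbb3 rested on an estimated 4054, 8504 and 8883 fragments and Erbb2 on 4886, 6527 and 6127. Areg rested on 245, 396 and 334, Hbegf on 486, 703 and 495, Btc on 198, 227 and 217, and Ereg on 112, 91 and 194. The values of Erbb2 and Erbb3 thus rest on more fragments than those of these 4 ligands. The estimate takes the longest coding transcript as the length used, and the 4 members with several RefSeq transcripts, Egfr, Tgfa, Egf and Nrg1, were left out.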

How the data were processed

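RNA of 3 libraries was measured, with 1 deposited table per library holding TPM values for 24091 genes, per the file headers. The submitters' processing notes name mm10, Cell Ranger 6.0.1 and HTSeq. The annotation and the TPM computation are not given in the sources used here. The members, gene lists and tests were chosen with earlier results of these data known. Values were taken as log2(TPM + 1). SDs of genes of mean TPM 1 or more were compared within 20 bins of mean expression, a step tested on simulated data. Text names all members, the other family genes, the 5 most abundant genes and any below 1 TPM in every library of each pathway list, the 3 most abundant of each marker list, and the 2 nearest profiles per member, except a few genes that are not reported here. All 10 Entrez IDs matched RefSeq (GRCm38.p6), and lengths came from GENCODE M21. Effective lengths were 200 bases below transcript length. Alternatives were other pseudocounts, thresholds, scalings, medians, and leaving out each library. No protein sequences were used here. Computations ran in Python 3.11.15 with pandas 2.3.3 and numpy 2.4.6. Exact tests used scipy 1.17.1, and figures used matplotlib 3.10.9.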

Additional observations from a re-analysis of the deposited data

How the results depend on the processing

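The receptor minus ligand difference (2.46, log2) was 2.93 with a pseudocount of 0.1, 3.33 with medians and 2.17 with members of mean TPM 1 or more, 2.37 to 2.63 on leaving out each library, and above 0 in all of these settings. The count of variable members was 2 (Erbb3 and Egfr) at percentile 90 in place of 1, and 0 to 1 on leaving out each library, with 0 without replicate 1. The count of expressed members (8) ran from 6, at a threshold of 5 TPM, to 9, at a threshold of 0.5, by the mean, or with TPM rescaled without 90 ribosomal protein genes and Mir6236. Of the neighbour pairs, ranked anew in each setting, 6 to 8 had 1 sign in every library used. The counts of 7 and 8 came only on leaving out a library, where fewer libraries have to agree. After centring on length bins, chosen after seeing the data, 7 expressed members were lowest in replicate 1, against 36.7% of 12099 genes. By the same centred values 1 member was variable. Of 50 levels recomputed under other scalings or without a library, 44 lay within 1 SD. Leaving out a library cannot move these means by 1 SD, so only the rescaled levels could fall outside. The 6 levels outside were higher on rescaling without ribosomal protein genes, which raises all other genes. No paired analysis was possible because the series has 1 group. Depth limits Ereg most among the members with an estimate.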

Other observations

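Several pathway genes outside the named ones, chosen after their values were seen, were also low in replicate 1. Cbl, a ubiquitin ligase that marks active EGFR for breakdown, had 1.56, 9.22 and 10.7 TPM in replicates 1, 2 and 3, the largest fold difference among the 21 inhibitor genes, with a transcript of 11372 bases. Spred2, an inhibitor of RAS and ERK signalling, had 7.87, 24.1 and 24.4 TPM with a transcript of 4449 bases. Braf, a kinase of the ERK cascade, had 2.77, 6.06 and 7.40 TPM with a transcript of 9728 bases. All 21 inhibitor genes and 23 of the 26 adaptor and kinase genes were lowest in replicate 1, against 63.2% of all expressed genes. Over the bins of length this share ran from 27.1% for the shortest transcripts to 85.5% for the longest. The genes of these lists spread over several bins, from Cblc at 1662 bases to Cbl, and were not matched to them. Of the 10 response genes, 7 were also lowest in replicate 1. The other 3 were lowest in replicate 3: Ier3 (32.1, 30.2 and 23.1 TPM), Plaur (24.2, 24.3 and 18.3 TPM) and Etv4 (15.3, 19.7 and 12.8 TPM).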
